A study of Arabidopsis thaliana with 72 samples.

Results

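ICL encodes isocitrate lyase, the first enzyme that is particular to the glyoxylate cycle. It is represented by 1 probe set in these data, listed under the symbol ICL, and it is 1 of 13350 genes that have a probe set naming a single gene. ICL was chosen by its signal values over these same 24 groups, which were known to differ, so its levels are given as a description and carry no test. Expression was measured with Affymetrix ATH1 arrays in roots and shoots of Arabidopsis thaliana, ecotype Wassilewskija, which is a wild-type accession.

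The plants were grown on vertical plates of MS medium with benomyl, a fungicide, under constant light, and were 10 days old when they were moved into pressure chambers. The partial pressure of oxygen was 2.1 kPa in the 10 kPa groups, against 21 kPa in the 97 kPa groups, where 97 kPa was the local ambient pressure. Carbon dioxide was 0.05 kPa in every group, and nitrogen made up the rest. Pressure and oxygen were therefore lowered together, and the effect of either alone cannot be told apart here. Plants were taken after 1, 3, 6, 12, 48 and 72 h, which gives 24 groups of tissue, pressure and time with 3 arrays each, 72 arrays in all. The 3 arrays of a group came from 3 separate chambers, with 1 tube of about 12 pooled plants per chamber, dissected into roots and the whole part above ground.

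Isocitrate lyase splits isocitrate into succinate and glyoxylate in the peroxisome, and malate synthase then joins the glyoxylate with acetyl-CoA to make malate. The cycle bypasses the steps of the citrate cycle that release carbon dioxide, so acetyl-CoA from fatty acid breakdown can be kept as organic acids and, by gluconeogenesis, turned into sugar. In Arabidopsis the pathway is best known from the germinating seedling that lives on its seed oil, and its enzymes are much less abundant once leaves are green. Genes of the cycle have also been described in senescing and sugar-starved plant tissue.

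The tissue labels were checked against marker genes. The summed signal of 9 genes of green shoot cells (Rubisco activase, antenna and photosystem proteins and phosphoribulokinase) lay between 2976 and 25604 in the 36 root arrays, against 154798 to 252448 in the 36 shoot arrays. The summed signal of the root hair expansins EXPA7 and EXPA18 lay between 205.1 and 1307 in roots, against 14.1 to 155.8 in shoots. No marker was at 0 on any array. All arrays had been scaled to the same trimmed mean of 500 signal units. The array numbers in the labels follow the pressures, with 4 arrays of 72 h as the exception, so apart from those 4 the order of the arrays and the pressure cannot be told apart. The other 97 kPa arrays form separate runs of numbers, with 12 arrays of 1 and 3 h and 22 arrays of 6 to 72 h. Among the controls, the run therefore also changes between 3 and 6 h. Short sample descriptions write 101 kPa for the control, where 97 kPa is used here after other fields of the labels. The titles name only ambient pressure for the control, and the control tube codes begin with 101.

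In roots the ICL signal was low at 10 kPa during the first hours and high from 12 h onward, while at 97 kPa it stayed low throughout. After 1 h the signal was 83.3, 6.32 and 11.3 in 10 kPa roots, against 6.99, 70.0 and 10.2 in 97 kPa roots. After 3 h it was 13.2, 67.9 and 5.14 in 10 kPa roots, against 14.2, 5.48 and 40.6 in 97 kPa roots. At both times the groups overlapped, and each held 1 array well above the other 2. The log2 differences were 0.08 at 1 h and 0.18 at 3 h, each with an SE of 0.88 and n = 3 per group. All log2 values here are of the signal plus a pseudocount of 8.90, the 10th percentile of all values, and differences are 10 kPa minus 97 kPa.

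After 6 h the ICL signal was 63.2, 99.9 and 66.4 in 10 kPa roots, against 5.04, 21.0 and 8.46 in 97 kPa roots. These groups did not overlap, and the log2 difference was 2.12 ± 0.88 (SE), or 0.84 with a higher pseudocount. The 10 kPa values of 63.2 and 66.4 at 6 h nevertheless lay within the range seen at 97 kPa at other times, where single root arrays reached 94.4. The value of 99.9 lay just above that range.

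After 12 h the signal was 282.2, 124.0 and 968.4 in 10 kPa roots, against 6.65, 79.3 and 73.5 in 97 kPa roots. The groups were apart, but the 10 kPa replicates differed widely among themselves, at 458 ± 449 (SD, n = 3), against 53.1 ± 40.4 in 97 kPa roots. The log2 difference was 2.80 ± 0.88 (SE).

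After 48 h the ICL signal was 436.9, 1174 and 982.5 in 10 kPa roots, against 9.35, 13.3 and 86.7 in 97 kPa roots. This was the highest group mean of the study, 865 ± 383 in 10 kPa roots against 36.5 ± 43.6 in 97 kPa roots (SD, n = 3 each). The lowest 10 kPa array was 5.04 times the highest 97 kPa array. The log2 difference was 4.57 ± 0.88 (SE). With 2 of the 3 signals at 97 kPa close to the pseudocount of 8.90, its size depended on the processing, and it ran from 3.10 with a higher pseudocount to 5.32 without replicate 3 at 97 kPa. Among the 16667 root probe sets that passed the filter on low signal, ordered from the highest positive difference down, ICL ranked 8.

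After 72 h the signal was 689.5, 647.5 and 287.9 in 10 kPa roots, against 43.6, 7.69 and 94.4 in 97 kPa roots. The groups were apart again, at 542 ± 221 in 10 kPa roots against 48.6 ± 43.6 in 97 kPa roots (SD, n = 3 each), and the log2 difference was 3.52 ± 0.88 (SE), or 2.35 with the higher pseudocount. In the same signed order ICL ranked 14 at this time, 81 and 52 at 6 and 12 h, and 6472 and 4545 at 1 and 3 h. Probe sets that were lower at 10 kPa come last in this order, and ICL passed the filter only through its high arrays of late 10 kPa roots. In these bulk samples, a larger share of cells that express ICL and more ICL RNA per cell cannot be told apart.

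**Figure D1:**
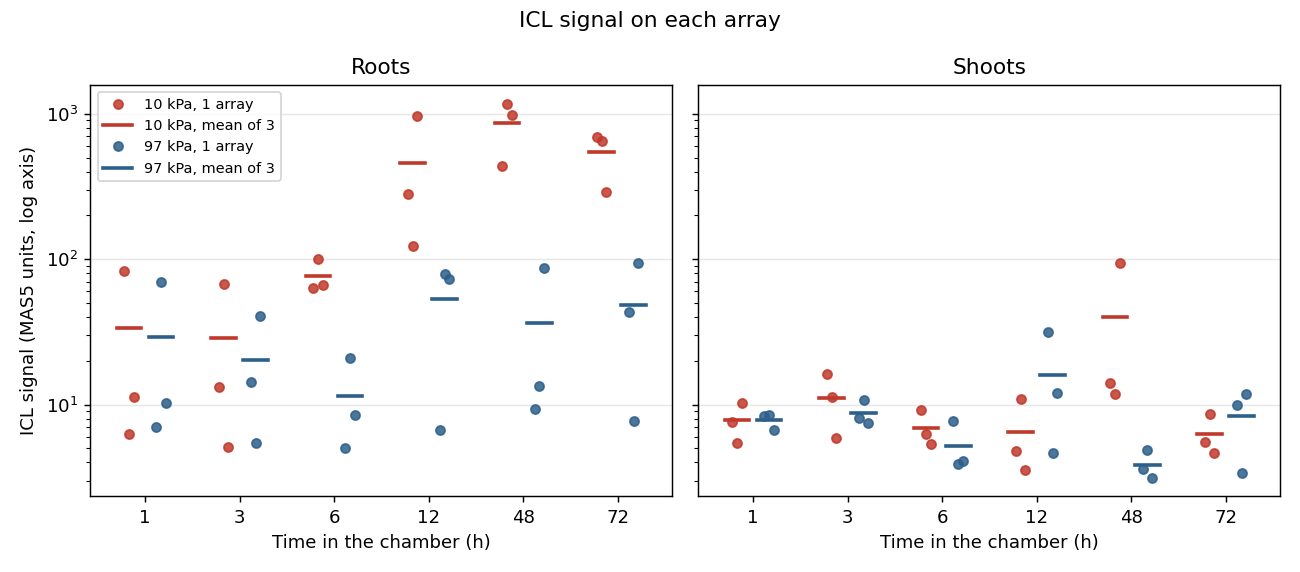
ICL signal (MAS5 units, log axis) on every array against time in the chamber, roots on the left and shoots on the right; points are single arrays, red for 10 kPa and blue for 97 kPa, and each bar is the mean of the 3 arrays of a group. The 9 root arrays at 10 kPa from 12 to 72 h lie between 124.0 and 1174, above every 97 kPa root array, the highest of which is 94.4.

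The groups of ICL were thus fully apart, with every 10 kPa array above every 97 kPa array, in roots at 6, 12, 48 and 72 h. The share of all root probe sets with the same full separation in that direction was 13.2%, 12.5%, 8.81% and 9.53% at those times, and 11.9% and 12.1% at 1 and 3 h, when the ICL groups overlapped. ICL was picked with this contrast in view, so the separation is a description of the gene.

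The depth of measurement limits the low values. The 40th percentile of a whole array lay between 89.6 and 177.7 signal units, and ICL reached it on 8 of the 18 root arrays at 10 kPa, all at 12 to 72 h, and on 0 of the 18 root arrays at 97 kPa. The exception at 12 to 72 h was replicate 2 of 12 h, at 124.0. On the array where it stood highest, ICL lay at the 87.9th percentile of all probe sets. Signals of 99.9 and lower, as on all root arrays of 1 to 6 h, are in the range where single arrays of 1 group differed more than 10 times, so an order among them cannot be read.

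In shoots ICL lay near the bottom of the array at nearly every time and at both pressures. The 36 shoot arrays ran from 3.15 to 94.3, with a median of 7.66, and none of them reached the 40th percentile. ICL therefore did not pass the filter on low signal in shoots and was not part of the shoot tests. The array at 94.3 was the exception, and without it the other 35 shoot arrays ended at 31.6.

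That exception belonged to the 48 h group. After 48 h the signal was 14.1, 11.9 and 94.3 in 10 kPa shoots, against 3.61, 4.83 and 3.15 in 97 kPa shoots. The groups were apart, as were 12.0% of all shoot probe sets in that direction, and the log2 difference was 1.53 ± 0.46 (SE). Without replicate 3 at 10 kPa the difference was 0.78, so 1 array made up much of its size, and with a higher pseudocount it was 0.49. Even this array stayed below each of the 9 root arrays at 10 kPa from 12 to 72 h.

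At the other 5 times the shoot groups overlapped, while 13.4%, 14.5%, 17.0%, 13.9% and 15.7% of shoot probe sets were apart and higher at 10 kPa after 1, 3, 6, 12 and 72 h. The log2 differences were -0.01 at 1 h, 0.15 at 3 h, 0.17 at 6 h, -0.58 at 12 h and -0.16 at 72 h, each with an SE of 0.46. After 12 h the signal was 4.83, 10.9 and 3.57 in 10 kPa shoots, against 31.6, 4.63 and 12.0 in 97 kPa shoots, where a single array stood out. After 72 h, when roots were far apart, the signal was 5.51, 8.59 and 4.62 in 10 kPa shoots, against 9.95, 3.37 and 11.8 in 97 kPa shoots.

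Ordered by mean, the 24 groups fell into a small upper set and a long lower set. The 10 kPa roots of 48, 72 and 12 h came first, at 865, 542 and 458, and neighbouring groups among them overlapped. The 10 kPa roots of 6 h came next at 76.5, and their range did not overlap that of the 12 h roots above them. From there down to the 97 kPa shoots of 48 h at 3.86, every group overlapped its neighbour in the order. The mean of the 97 kPa roots was between 11.5 and 53.1 over the 6 times, and at each time at least 1 of the 3 arrays was under 10.

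Root and shoot could also be compared within the same plants, since the array names carry matching codes for 29 tubes that gave both tissues. In the 7 such tubes at 10 kPa from 12 to 72 h, the root signal was above the shoot signal in 7 of 7. The lowest root signal among them was 124.0 and the highest shoot signal 94.3. No ratio is given, because the shoot signals were below the 40th percentile of their arrays. In the 9 tubes at 10 kPa from 1 to 6 h and the 13 tubes at 97 kPa both tissues were in that range, so no order between them can be read.

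Of the 4 arrays whose numbers lie apart from the runs of one pressure, 1 was a 10 kPa root array and 1 a 97 kPa root array, both of 72 h. Their ICL signal was 647.5 at 10 kPa and 7.69 at 97 kPa. The ratio of 3 prime to 5 prime GAPDH signal, a control for RNA and labelling quality, was 342.9 on this 10 kPa root array. On this 97 kPa root array it was 1312, the highest of all root arrays. The shoot arrays of this set had 8.59 at 10 kPa and 11.8 at 97 kPa. Within this set of array numbers the 10 kPa root array was the higher one. Both root arrays are part of the 72 h groups described above, which did not overlap, so their order is no separate comparison.

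The other genes of the pathway were looked up in 14 lists of 302 genes in all, of which 61, ICL included, had a probe set naming them alone. Tests on these genes came from limma, fitted to all 16667 root or 15794 shoot probe sets that passed the filter, with Benjamini-Hochberg adjusted p-values and a threshold of 0.05. In roots 3.56%, 6.00%, 9.19%, 12.0%, 11.5% and 8.16% of all probe sets passed at 1, 3, 6, 12, 48 and 72 h. In shoots 4.36%, 5.40%, 11.7%, 7.41%, 23.7% and 19.8% passed at the same times. The share that rose in shoots was 2.27%, 2.54%, 5.78%, 3.82%, 10.4% and 9.33%, and the share that fell was 2.10%, 2.86%, 5.92%, 3.59%, 13.4% and 10.5%. When only the 6 arrays of a comparison were fitted, several of the root calls below were lost: at 48 h those of OLEO3, FDH, BBM and AT4G33150, and at 72 h those of OLEO3, FDH, SDH2-2, PDC2 and AKINBETA1.

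The list of the glyoxylate cycle itself had 11 genes, and ICL was the only one with a probe set naming a single gene. Malate synthase, the partner enzyme, and the peroxisomal citrate synthases, aconitases and malate dehydrogenases were not analysed here. Of 8 genes for gluconeogenesis and export of carbon from the cycle, only PPDK could be followed. PPDK, pyruvate, orthophosphate dikinase, makes phosphoenolpyruvate from pyruvate and acts in gluconeogenesis from pyruvate in Arabidopsis seedlings.

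PPDK did not pass the test in roots at any time. After 48 h its signal was 66.7, 121.3 and 13.5 in 10 kPa roots, against 92.9, 120.1 and 154.8 in 97 kPa roots. After 72 h it was 5.16, 15.1 and 164.3 in 10 kPa roots, against 114.5, 51.1 and 174.2 in 97 kPa roots. The groups overlapped at both times, and the log2 differences were -1.10 (adjusted p = 0.289 by limma) and -1.51 (adjusted p = 0.150 by limma), each with an SE of 0.64. In shoots PPDK fell at 72 h, to 782 ± 299 in 10 kPa shoots against 1558 ± 342 in 97 kPa shoots (SD, n = 3 each), by 1.03 on the log2 scale (limma, adjusted p = 0.00371).

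Fatty acid beta-oxidation, which supplies acetyl-CoA to the cycle, was represented by SDRB and AIM1, 2 of 31 listed genes. AIM1 is one of the multifunctional proteins of the pathway, and SDRB is a peroxisomal reductase that acts on unsaturated fatty acids. Neither passed the test in roots at any of the 6 times. SDRB had log2 differences of 0.58, 0.46 and 0.71 at 12, 48 and 72 h, with an SE of 0.27 and overlapping groups at each time. AIM1 had log2 differences of -0.36, -0.25 and 0.44 at these times, with an SE of 0.20.

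Genes of oil storage and release gave 1 called gene in roots, which fell. OLEO3, an oleosin that coats seed oil bodies, had a signal of 103.7, 132.4 and 67.3 in 10 kPa roots after 48 h, against 232.1, 339.6 and 320.9 in 97 kPa roots. After 72 h it was 27.9, 96.4 and 134.3 in 10 kPa roots, against 276.1, 250.9 and 153.4 in 97 kPa roots. The groups were apart at both times, and OLEO3 fell, with log2 differences of -1.50 at 48 h (adjusted p = 0.00553) and -1.48 at 72 h (adjusted p = 0.00827) and an SE of 0.37 (limma). Of all root probe sets, 6.18% fell at 48 h and 4.63% at 72 h. Without replicate 1 at 10 kPa the 72 h difference no longer passed.

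SDP1-LIKE, a homologue of the oil body lipase SDP1, went the other way without passing the test. After 72 h its signal was 227.5, 109.7 and 158.0 in 10 kPa roots, against 35.5, 20.9 and 76.4 in 97 kPa roots. Those groups were apart, and the log2 difference was 1.79 ± 0.60 (SE), with an adjusted p of 0.056 by limma. SDP1, the main triacylglycerol lipase of seedlings, had log2 differences between -0.30 and 0.09 over the 6 root times, none of them past the threshold. The peroxisomal protein PEX4 and HPR, the hydroxypyruvate reductase of photorespiration, did not pass in roots at any time either.

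In the citrate cycle and organic acid list, 8 of 9 genes were tested in roots. SDH2-2, an iron-sulfur subunit of succinate dehydrogenase, the enzyme that takes up succinate in the mitochondrion, fell at all 6 times. Of all root probe sets, 1.43%, 3.43%, 4.60%, 6.35%, 6.18% and 4.63% fell from 1 to 72 h. After 12 h its signal was 1209, 1142 and 934.3 in 10 kPa roots, against 3281, 3024 and 2736 in 97 kPa roots. The groups were apart at every time, and the log2 differences were -0.62, -0.86, -1.08, -1.46, -0.76 and -0.74 from 1 to 72 h, with an SE of 0.14 and adjusted p-values by limma between 1.28e-09 at 12 h and 0.00542 at 1 h. At 1 h the call was lost without replicate 2 at 97 kPa.

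SDH2-1 and SDH1-1, which encode subunits of the same enzyme, did not pass in roots at any time. Their log2 differences were -0.29 and -0.16 at 6 h and 0.34 and -0.50 at 48 h, with SEs of 0.16 and 0.22, and the SDH2-1 groups were apart and lower at 10 kPa at 6 h. Whether they differed from SDH2-2 was not tested. SDH1-2 had 1.26 ± 0.58 (SE) at 72 h, with overlapping groups. IDH-V and IDH-VI, which encode subunits of the enzyme that competes for isocitrate in the mitochondrion, had log2 differences between -0.11 and 0.23 in roots. The cytosolic cICDH had log2 differences between -0.38 and 0.12. A single gene of the list rose, AT5G65750, at 72 h by 1.44 on the log2 scale (limma, adjusted p = 0.0431). Its signal was 276.6, 318.1 and 373.8 in 10 kPa roots, against 390.8, 169.5 and 16.0 in 97 kPa roots. The groups overlapped, the gene was named after its values were seen, and the call was not run under the alternatives.

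Fermentation genes were followed because the roots were at low oxygen. PDC2, a pyruvate decarboxylase and so an enzyme of ethanol fermentation, rose at all 6 root times. Its signal after 1 h was 3742, 3386 and 2950 in 10 kPa roots, against 293.9, 211.0 and 356.9 in 97 kPa roots, and the groups were apart at every time. The log2 difference was largest at 1 h, 3.53 ± 0.21 (SE, limma, adjusted p = 4.26e-15), and was 1.41 at 48 h and 0.81 at 72 h. The PDC2 difference was thus largest at 1 h, when ICL was low in 10 kPa roots, and smaller at 48 and 72 h, when ICL was high there. The 72 h call was lost without replicate 1 at 10 kPa, without replicate 2 at 97 kPa, or without the 4 arrays numbered apart.

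FDH, a formate dehydrogenase, fell in roots at 12, 48 and 72 h, with log2 differences of -1.37, -1.54 and -1.40 and an SE of 0.45 (limma, adjusted p = 0.0386, 0.0197 and 0.0458). After 48 h its signal was 42.5, 132.7 and 188.1 in 10 kPa roots, against 214.9, 370.2 and 409.4 in 97 kPa roots, and the groups were apart. These calls were close to the threshold, and each was lost without replicate 1 at 10 kPa, when the adjusted p at 72 h was 0.419. The 12 h call was lost when any array of the comparison except 10 kPa replicate 2 was left out, and with quantile normalization, no filter or no variance trend. The others were lost at 48 h without 97 kPa replicates 2 or 3, and at 72 h without any 1 of the 97 kPa replicates, or without a pseudocount, filter or variance trend. ACS, an acetyl-CoA synthetase that activates acetate, did not pass in roots at any time.

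Further settings in which ICL has been described were checked by list. BBM, a transcription factor of the embryo and of root meristems, was the only 1 of 23 seed and embryo genes with a probe set naming it alone. It fell at 6 and 48 h, with log2 differences of -2.34 (adjusted p = 0.0149) and -2.23 (adjusted p = 0.0182) and an SE of 0.64 (limma). After 48 h its signal was 100.3, 17.9 and 15.0 in 10 kPa roots, against 294.5, 123.8 and 168.5 in 97 kPa roots, so the groups were apart at low levels. Each call was lost without replicates 2 or 3 at 10 kPa or without replicate 1 at 97 kPa, and the 6 h call also without replicate 3 at 97 kPa.

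Of 11 genes for sugar starvation and amino acid breakdown tested in roots, none was called at 1 and 3 h, 1 rose and 3 fell at 6 h, 2 fell at 12 h, and 1 fell at each of 48 and 72 h. Over all root probe sets, 4.59% rose at 6 h, and 4.60%, 6.35%, 6.18% and 4.63% fell at 6, 12, 48 and 72 h. The list's median log2 difference was -0.19 at 48 h and -0.36 at 72 h, beside -0.07 and 0.01 over all probe sets. AT4G33150, whose synonyms name lysine-ketoglutarate reductase and saccharopine dehydrogenase, enzymes of lysine breakdown, fell at 6, 12 and 48 h, with log2 differences of -0.87, -1.11 and -0.88. Its 6 h call was lost without replicate 1 at 97 kPa, and its 48 h call without replicate 1 at 10 kPa or replicate 2 at 97 kPa.

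AKINBETA1, a subunit of the energy sensor kinase SnRK1, fell at 72 h, to 935 ± 12.3 in 10 kPa roots against 1473 ± 60.3 in 97 kPa roots (SD, n = 3 each). The log2 difference was -0.65 ± 0.16 (SE, limma, adjusted p = 0.00912). Without the 4 arrays that are numbered apart, all of 72 h, it no longer passed. MCCA, a subunit of the methylcrotonyl-CoA carboxylase of leucine breakdown, fell at 6 h, with a log2 difference of -0.99 (limma, adjusted p = 0.0105) and had -0.44 and -0.70 at 48 and 72 h, without passing. Its 6 h call was lost without replicate 2 at either pressure.

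None of the 4 senescence genes passed in roots from 3 to 72 h. The nearest to ICL in direction was SAG29, a sugar transporter of the SWEET family that marks senescence. Its signal after 48 h was 201.9, 194.8 and 173.9 in 10 kPa roots, against 153.8, 140.2 and 29.3 in 97 kPa roots. The groups were apart, and the log2 difference was 1.03 ± 0.71 (SE), with an adjusted p of 0.384 by limma. In shoots, where ICL was low, SAG29 rose at 6, 12, 48 and 72 h by 1.66, 2.01, 2.17 and 1.87. Its 6 h call was lost without replicates 1 or 3 at 10 kPa or replicates 2 or 3 at 97 kPa, and its 12 h call without replicate 3 at 10 kPa or replicate 1 at 97 kPa.

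**Figure D2:**
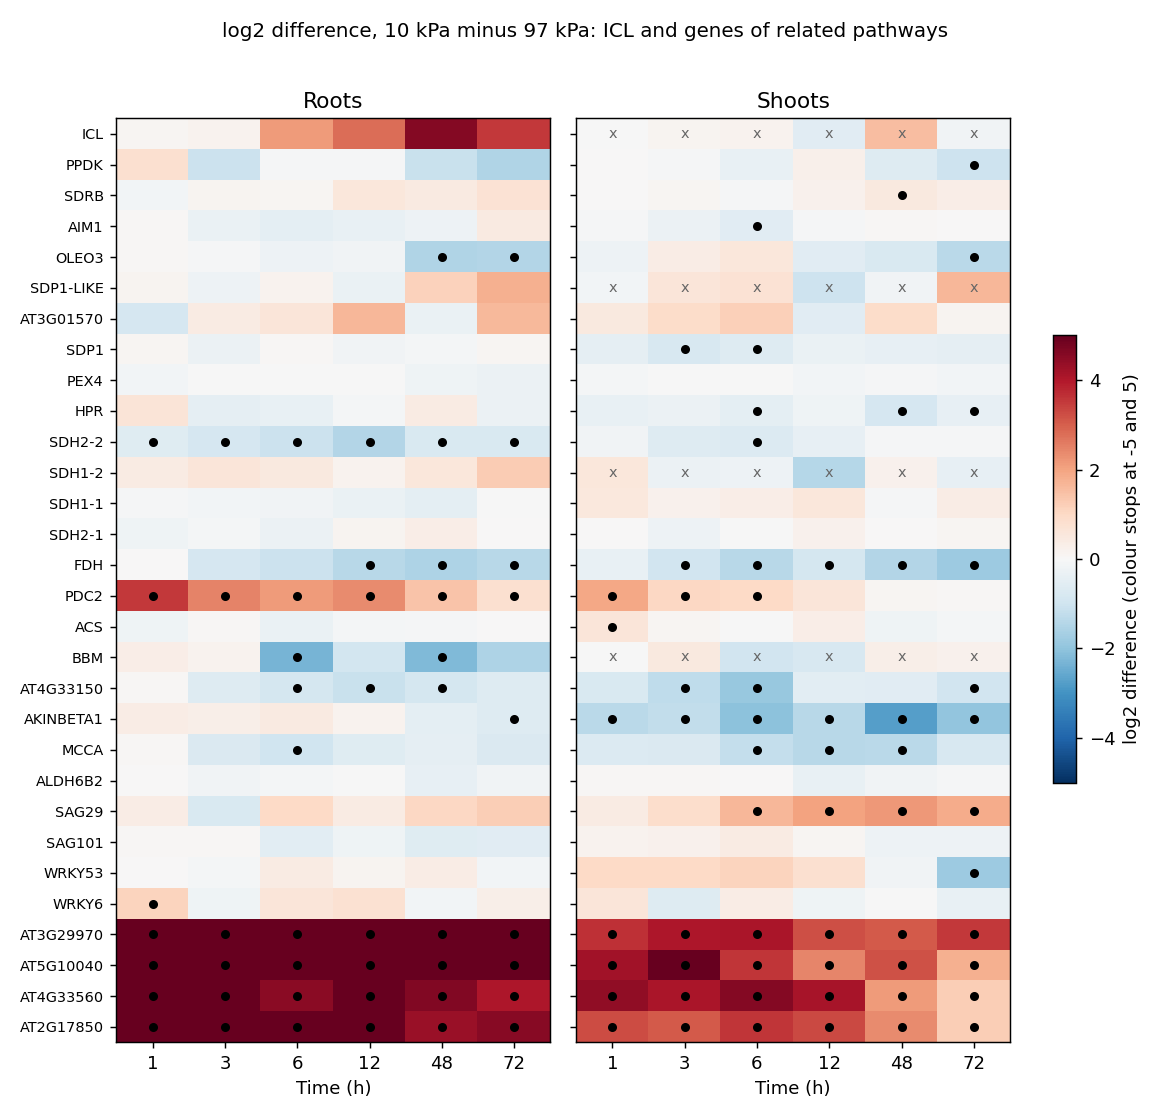
Differences in log2 signal, 10 kPa minus 97 kPa, for ICL (top row) and named genes of related pathways at 6 times in roots (left) and shoots (right); red is higher at 10 kPa, blue lower, black dots mark genes that passed limma at an adjusted p of 0.05, and crosses mark genes that were not tested there. ICL carries neither dot nor cross in roots: it was part of the fit, but no p-value is given for it because it was chosen by these values. Its difference of 4.57 at 48 h stands beside low-oxygen genes such as AT3G29970, at 5.29.

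Core low-oxygen genes, a set induced by oxygen shortage in most plant organs, were high in 10 kPa roots from the first hour. Of 12 tested genes, 12, 12, 11, 11, 11 and 8 rose at 1, 3, 6, 12, 48 and 72 h. In all, 2.13%, 2.57%, 4.59%, 5.66%, 5.33% and 3.53% of root probe sets rose at these times. The list's median log2 difference was 4.80, 3.50, 3.82, 4.62, 2.73 and 2.32. The median log2 level of the 12 genes was 13.2 to 13.8 on the 9 arrays of 10 kPa roots at 1 to 6 h, against 7.84 to 9.64 in 97 kPa roots. ICL was at 99.9 or lower on all of those 10 kPa arrays.

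The low-oxygen genes and ICL therefore differed in timing. At 12 to 72 h the median log2 level of the 12 genes was 11.9 to 14.3 in 10 kPa roots, a range that includes the early one, against 8.22 to 10.7 in 97 kPa roots. Among the members, AT3G29970 was 3753 ± 620 in 10 kPa roots at 1 h and 33677 ± 3176 at 48 h (SD, n = 3 each), with 81.0 ± 37.5 and 914 ± 390 in 97 kPa roots. Across the 12 root groups, its mean log2 level had a Pearson correlation of 0.72 with that of ICL, which is a description over groups that share one experiment. This was near the top of the list, whose correlations ran from 0.08 for AT3G10040 to 0.76 for AT3G03270.

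**Figure D3:**
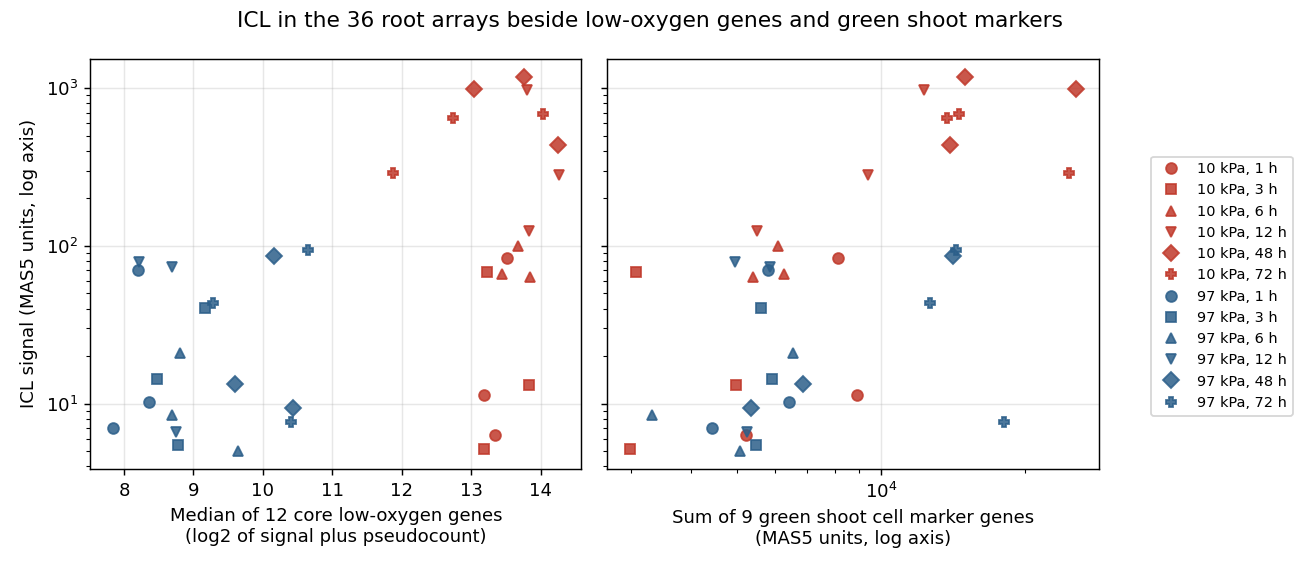
ICL signal (MAS5 units, log axis) on the 36 root arrays against the median log2 level of 12 core low-oxygen genes (left) and the summed signal of 9 green shoot cell markers (right, log axis); red is 10 kPa, blue is 97 kPa, and the shape gives the time. On the left, the 10 kPa arrays of all times sit at 11.9 or above while ICL runs from 5.14 to 1174; on the right, 97 kPa arrays of 72 h reach sums of 12660 to 18122 with ICL at 94.4 or below.

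Some markers of green shoot cells also differed with time and pressure in the root arrays. Of 9 genes, 1, 2 and 3 rose at 6, 12 and 48 h and none was called at 1, 3 and 72 h. Over all root probe sets, 4.59%, 5.66% and 5.33% rose at 6, 12 and 48 h. The median log2 differences of the 9 genes were 0.17, 0.62 and 1.02 at 6, 12 and 48 h and 0.04 at 72 h. PSAE-1, a photosystem I subunit, had a signal of 4193, 3458 and 6106 in 10 kPa roots after 48 h, against 677.2, 1041 and 2507 in 97 kPa roots, a log2 difference of 1.87 ± 0.35 (SE, limma, adjusted p = 0.000313). PSBW and PSBY, photosystem II subunits, rose by 1.29 and 1.65 at this time. Over all 9 genes the log2 differences at 48 h ran from -0.49 to 1.87.

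The call of PSBW was lost without replicate 3 at 10 kPa or replicate 2 at 97 kPa. The 12 h call of PSBY was lost without replicate 3 at 10 kPa. The 6 h call of PSAE-1 was lost when any array of the comparison except 97 kPa replicate 2 was left out, and its 12 h call without 10 kPa replicates 1 or 3 or 97 kPa replicates 2 or 3. Both were also lost with quantile normalization or no variance trend, and the adjusted p-values reached 0.169 and 0.156. Across the 12 root groups PSBY had a correlation of 0.85 with ICL, and across all 24 groups, shoots included, one of -0.45. PSBY was the highest of the green markers over the root groups, and RCA, Rubisco activase, was the lowest at 0.12.

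The summed signal of the 9 markers was set beside ICL for each late root array. After 12 h the sums were 9381, 5498 and 12296 in 10 kPa roots with ICL at 282.2, 124.0 and 968.4, so the array with the higher sum had the higher ICL. After 48 h they were 13926, 14980 and 25604 in 10 kPa roots with ICL at 436.9, 1174 and 982.5, against 5346, 6876 and 14130 in 97 kPa roots with ICL at 9.35, 13.3 and 86.7. After 72 h the sums overlapped, at 14566, 13730 and 24697 in 10 kPa roots, against 12660, 18122 and 14316 in 97 kPa roots.

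At 72 h ICL was thus apart between pressures while the marker sums were not. The 97 kPa root array with the highest sum, 18122, had an ICL signal of 7.69. The same array had the highest ratio of 3 prime to 5 prime GAPDH signal of all root arrays, 1312. In shoots, where the sums were at least 154798, the median ICL signal was 7.66. Beyond these values the part of the green markers in the root difference was not tested.

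No root cell marker passed the test at the late times. EXPA7 and EXPA18, which serve root hair growth, both fell at 3 h in roots, with log2 differences of -2.03 and -1.49 (limma, adjusted p = 0.000370 and 0.0128), and neither passed at any other time. The EXPA18 call was lost without replicate 2 at 10 kPa or replicate 3 at 97 kPa. At 3 h the ICL groups overlapped.

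The ratio of 3 prime to 5 prime signal of GAPDH, a control for RNA and labelling quality, also varied with time and pressure. In roots after 12 h it was 58.9 to 116.2 on 10 kPa arrays, against 100.1 to 170.2 on 97 kPa arrays. After 48 h it was 92.2 to 186.8 on 10 kPa arrays, against 190.6 to 353.9 on 97 kPa arrays, and after 72 h 221.1 to 432.5, against 201.6 to 1312. The ratio was lower at 10 kPa without overlap at 48 h, and overlapped at 12 and 72 h, when ICL was apart. Its part in the ICL result was not tested.

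Genes with a pattern like that of ICL were sought among 9987 probe sets that passed the filter and name a single gene. The measure was the Pearson correlation of log2 group means over the 24 groups, whose median over these 9987 probe sets was 0.28. The 10 highest were AT1G36980 at 0.92, AT2G43540 at 0.91, AT1G21770 at 0.90, AT5G14650 at 0.89, AT4G26710, AT4G30020 and AT2G01090 at 0.87 each, AT1G30515 and PRA1.E at 0.86 each, and AT3G27400 at 0.85. PRA1.E is annotated as a prenylated RAB acceptor, and the other 9 carry only a locus name in the tables used here. Since 6 of the 10 highest of all 17874 probe sets compared name no single gene, the order holds for named genes only.

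These genes were picked by their correlation with ICL, so their values are a description of that choice. AT5G14650 had 724 to 1536 signal units on the 6 arrays of 10 kPa roots at 48 and 72 h, against 79.3 to 174.3 on those of 97 kPa roots. On the 6 arrays of 10 kPa roots at 1 and 3 h it was at 39.0 to 192.8. Like ICL, it was low in late 10 kPa shoots, at 4.92 to 102.5.

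AT1G30515 had 1432 to 2582 signal units on the 6 late arrays of 10 kPa roots, against 313.4 to 457.8 on those of 97 kPa roots, and 207.3 to 483.8 in 10 kPa roots at 1 and 3 h. AT3G27400 had 719.8 to 1235 on the late arrays of 10 kPa roots, against 196.0 to 558.0 on those of 97 kPa roots. In both genes the late root groups were apart.

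AT1G36980, first in the order, moved over a much narrower range than ICL. It had 9296 to 15321 on the late arrays of 10 kPa roots, against 5549 to 8568 on those of 97 kPa roots, and 3829 to 4925 in late 10 kPa shoots. Late root groups overlapped in AT4G26710, at 14224 to 19086 for 10 kPa and 11514 to 15796 for 97 kPa, and in AT2G43540, at 1186 to 1905 for 10 kPa and 856.0 to 1449 for 97 kPa. The size of the late root difference thus varied widely among genes of like pattern.

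Over the 12 root groups alone the 5 highest genes were AT1G21770 and AT1G30515 at 0.98, AT5G57815 and AT5G23380 at 0.97 and AT1G65900 at 0.95, with a median of -0.02 over the 9987 probe sets naming a single gene. The first 2 of these were also among the 10 chosen over all groups. AT5G57815 followed ICL in roots only, since its correlation over 24 groups was -0.06, and its late 10 kPa shoot signal of 2668 to 3264 was above its root signal. Of the pathway genes, PPDK and FDH each had a correlation of -0.71 over the 24 groups, and SDP1-LIKE had 0.72. Over the 12 root groups, pathway genes outside the low-oxygen and marker lists ran from -0.83 for BBM to 0.79 for SAG29. PPDK was at -0.71 there and SDP1-LIKE at 0.69.

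**Figure D4:**
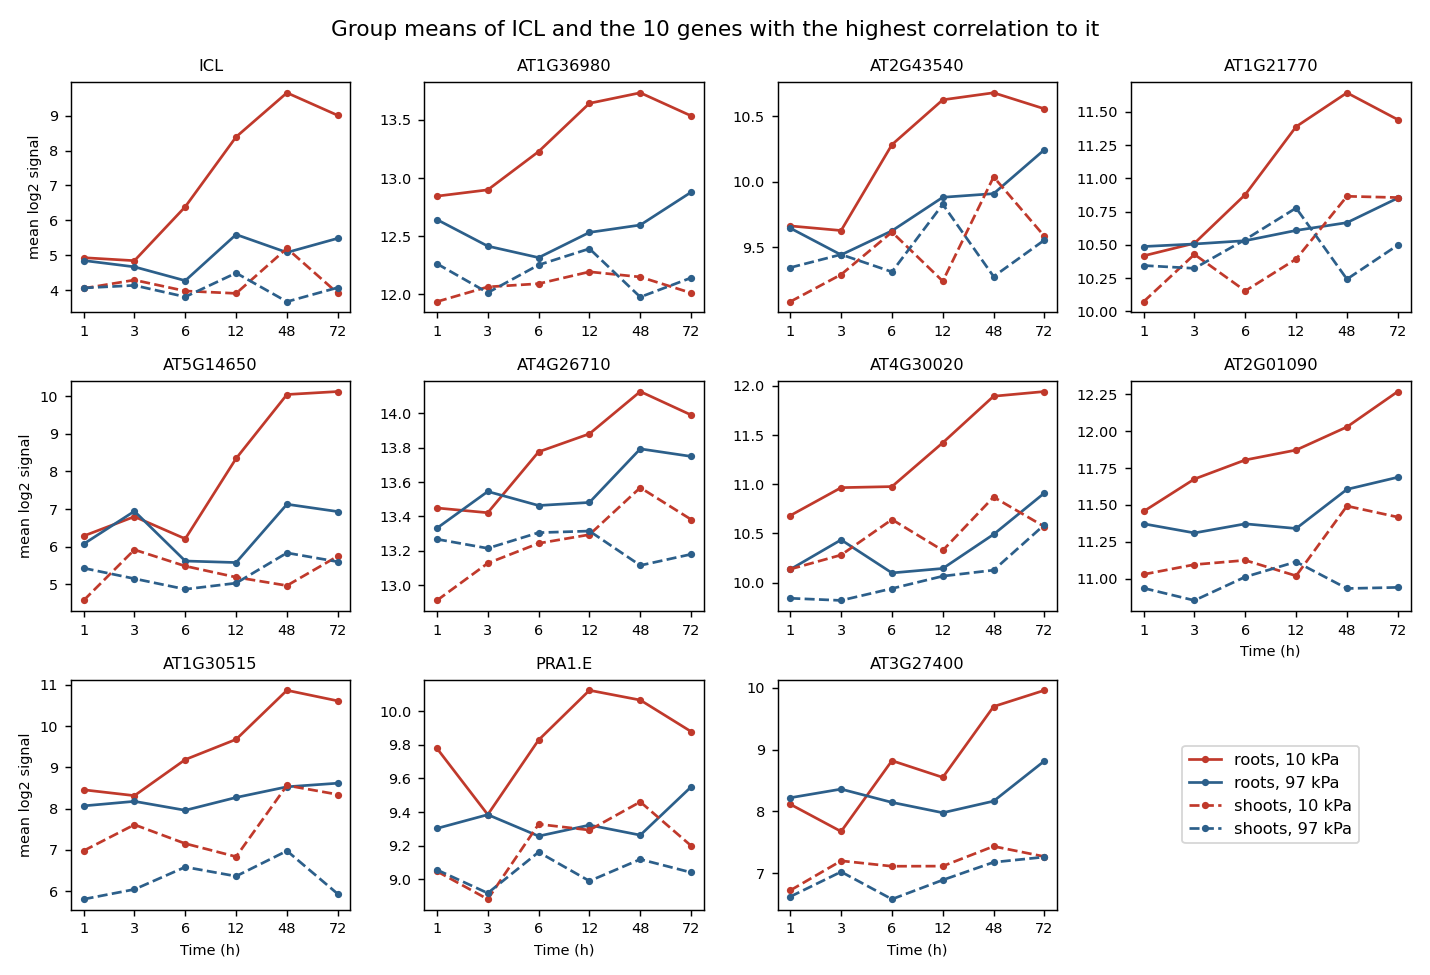
Group means of log2 signal against time for ICL and the 10 genes with the highest correlation to it over the 24 groups; solid lines are roots, dashed lines shoots, red 10 kPa and blue 97 kPa, and each panel has its own vertical axis. In ICL the mean for 10 kPa roots is 9.65 at 48 h with 5.08 for 97 kPa roots, the widest gap between pressures of the panels shown.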

How the data were processed

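Total RNA was labelled with a 3 prime IVT kit and hybridised to ATH1 arrays, per the labels' protocols. The deposited values are the authors' linear signal intensities per probe set, for which the submitters' processing notes name Affymetrix Expression Console and MAS5, and the 2% trimmed mean of each array is 500. Of 22810 probe sets, 13513 name 1 gene, 503 several, and 8794 are unnamed here; 64 controls were left out of the tests. Symbols were updated through RefSeq TAIR10.1.

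A pseudocount of 8.90 (10th percentile of all values) was added before taking log2. A probe set entered the tests when at least 3 arrays of the tissue had it at or above their 40th percentile. limma 3.58.1 in R 4.3.3 (lmFit, eBayes with trend, two-sided) was fitted to the 36 arrays of each tissue with 12 group means and no replicate block, and the p-values were adjusted by Benjamini-Hochberg. On simulated data for roots at 6 h, 46.2% of changes of 1 log2 unit and 82.3% of changes of 2 were recovered, so a gene that did not pass may still differ. ICL, the lists and the tests were chosen with earlier results of these data known.

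Named were ICL, all measured genes of the glyoxylate and gluconeogenesis lists, up to 4 genes of each other list with the largest root difference at 48 h, and the most alike genes. IDH-V, IDH-VI, cICDH and AT5G65750 were added after their values were seen. Same-numbered replicates did not deviate together: the correlations lay between -0.05 and 0.10 in roots and between -0.07 and 0.09 in shoots. Alternatives were quantile normalization, other pseudocounts and filters, no trend, only the 6 arrays compared, a replicate block, leaving out each replicate, and leaving out the 4 arrays numbered apart.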

Additional observations from a re-analysis of the deposited data

Results flagged for a closer look

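In 5 cases every 10 kPa array lay on one side of every 97 kPa array in roots and on the opposite side in shoots. Of 14805 probe sets tested in both tissues, 2.82%, 2.72% and 4.14% did so at 1, 3 and 6 h. AKINBETA1 had log2 differences of 0.38 in roots and -1.35 in shoots at 1 h, 0.27 and -1.22 at 3 h, and 0.43 and -2.03 at 6 h. It passed in shoots at each of these times but not in roots (limma, adjusted p = 0.250, 0.433 and 0.0945). ACS had -0.23 in roots, without passing (limma, adjusted p = 0.630), and 0.61 in shoots at 1 h. SAG101, a lipase-like gene of senescence, had -0.54 in roots and 0.43 in shoots at 6 h and passed in neither (limma, adjusted p = 0.222 and 0.269). The difference between the tissues was not tested for any of them.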

How the results depend on the processing

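In roots at 6, 12, 48 and 72 h the ICL groups were apart. Leaving out arrays or changing the pseudocount, filter or fit could therefore not turn the direction of the difference. Quantile normalization, which rescales each array, kept it too. The other alternatives bear only on the size of the ICL difference. With a pseudocount at the 30th percentile, which compresses low values, it was 0.84 at 6 h, 3.10 at 48 h and 2.35 at 72 h. Leaving out single replicates gave 1.88 to 2.43 at 6 h, 1.98 to 3.46 at 12 h, 4.13 to 5.32 at 48 h and 2.80 to 4.12 at 72 h. At 1 and 3 h the sign depended on single replicates (-0.72 to 0.81 and -0.53 to 0.69). In shoots at 48 h the difference was 2.72 without a pseudocount, 0.49 with the higher one, and 0.78 to 1.94 when single replicates were left out.

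Fitting only the 6 arrays of a comparison called 1130 probe sets instead of 594 in roots at 1 h, 1702 instead of 1000 at 3 h, 599 instead of 1918 at 48 h and 391 instead of 1360 at 72 h, and in shoots 1475 instead of 853 at 3 h and 1152 instead of 3750 at 48 h. List genes called were then 7 instead of 14 in roots at 72 h and 17 instead of 11 in shoots at 12 h. Leaving out single replicates gave 331 to 471 probe sets in roots at 1 h and 1262 to 2006 at 12 h, the lowest without 10 kPa replicate 3. In shoots it gave 264 to 663 at 1 h, 307 to 713 at 3 h, 1222 to 1475 at 6 h and 717 to 938 at 12 h. These changes come with fewer samples; their cause was not tested further.

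Of the 10 genes most like ICL over group means, 6 were also chosen over the 72 arrays and 1 by Spearman correlation. Of 126 calls of named genes, 80 were kept under every alternative, 46 were lost under at least 1, and none was reversed. Another 35 differences of named genes that did not pass were called under at least 1 alternative. With the replicate number as a block, 6 differences that had not passed were called, and no call of a named gene was lost. No count moved by more than 1.5 times. Each replicate number occurs once in every group, so such a block cannot change the size of a difference. The ICL difference at 48 h in roots was 4.57 with it by design. The replicate numbers do not pair the samples. Values of ICL near the 10th percentile of an array, 4.91 to 16.0 signal units, limit all shoot and early root comparisons.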

Other observations

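In shoots, where ICL was low, 33 genes of the related pathways were tested outside the low-oxygen and marker lists. The number that rose was 2, 1, 2, 1, 2 and 1 at 1, 3, 6, 12, 48 and 72 h, and the number that fell was 1, 4, 11, 4, 6 and 9. Of all shoot probe sets, 2.27%, 2.54%, 5.78%, 3.82%, 10.4% and 9.33% rose and 2.10%, 2.86%, 5.92%, 3.59%, 13.4% and 10.5% fell at these times. AKINBETA1 fell at 48 h, with a log2 difference of -2.77, to 231 ± 69.5 in 10 kPa shoots against 1642 ± 587 in 97 kPa shoots (SD, n = 3 each; limma, adjusted p = 5.96e-08). FDH fell at 3, 6, 12, 48 and 72 h, with a log2 difference of -1.82 at 72 h, to 950 ± 73.0 in 10 kPa shoots against 3434 ± 736 in 97 kPa shoots (limma, adjusted p = 4.96e-08). OLEO3 fell in shoots at 72 h, as it did in roots, to 73.3 ± 14.7 in 10 kPa shoots against 199 ± 12.1 in 97 kPa shoots, with a log2 difference of -1.35 (limma, adjusted p = 0.00135).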
